A study of Arabidopsis thaliana with 4 samples.

Results

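The Aux/IAA repressors and the ARF factors of Arabidopsis thaliana were followed as 44 rows of a table of 32548 genes, 29 Aux/IAA genes and 15 ARF genes, taken by locus identifier. RNA had been sequenced from whole seedlings of the wild type (accession Col-0, 2 libraries) and of the homozygous uba2c mutant (2 libraries), which lacks normal function of an RNA-binding protein. All plants were 2 weeks old and had stood on Murashige and Skoog plates, with 16 h of light at 23 °C and 8 h of dark at 22 °C each day. The labels name neither the mutant allele nor the time of harvest, and they do not say whether the libraries of a genotype came from separate plants, so a p-value here speaks of the spread among these libraries, which may be technical.

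Aux/IAA proteins are short-lived repressors that sit on ARF transcription factors and bring in TOPLESS (TPL) corepressors. Auxin joins the core of an Aux/IAA protein, a run of glycine, tryptophan and a pair of prolines called the degron, to an F-box receptor of the TIR1/AFB family, which marks the repressor for destruction and frees the ARF. Many Aux/IAA genes are themselves switched on by ARF activators, so that their transcripts are used as readouts of auxin response in seedlings, while most ARF transcripts are known to change less with auxin.

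The degron core splits the repressors by their own sequence, and the results below give both groups side by side. Translation of the annotated coding sequences (RefSeq, TAIR10.1) found this run in 23 of the 29 Aux/IAA genes. It was not found in IAA20, IAA30, IAA31, IAA32, IAA33 or IAA34. The coding sequence around it is shown for the 5 carriers whose transcript moved most between the genotypes, with the codons of the run and of the valine after it in capitals.
IAA29: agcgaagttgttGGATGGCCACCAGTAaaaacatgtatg
IAA19: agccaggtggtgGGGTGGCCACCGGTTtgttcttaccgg
IAA2: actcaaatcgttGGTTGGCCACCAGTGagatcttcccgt
IAA7: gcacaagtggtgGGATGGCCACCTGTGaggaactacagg
IAA28: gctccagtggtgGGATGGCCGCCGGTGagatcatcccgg

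The 250 bases before the gene start are shown for 3 genes that rose, IAA19, IAA7 and IAA29, because they carry different motifs. Capitals mark TGTCTC, an auxin response element, and CACGTG, the G-box bound by PIF and other basic helix-loop-helix or bZIP factors, each searched on both strands (TGTCTC also as GAGACA, and CACGTG being its own reverse complement). A CACGTG followed by TCTC would share 2 letters with a TGTCTC, which is not the case in these stretches. The windows are chr3:5263751-5264000 for IAA19, chr3:8194356-8194605 for IAA7 and chr4:15583082-15583331 for IAA29, all on the plus strand in TAIR10.1.
IAA19: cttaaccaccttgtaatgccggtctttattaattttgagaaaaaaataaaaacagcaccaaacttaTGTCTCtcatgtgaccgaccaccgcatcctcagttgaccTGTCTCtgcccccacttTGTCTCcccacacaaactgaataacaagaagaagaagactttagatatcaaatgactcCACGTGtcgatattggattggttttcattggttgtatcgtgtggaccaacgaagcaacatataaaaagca
IAA7: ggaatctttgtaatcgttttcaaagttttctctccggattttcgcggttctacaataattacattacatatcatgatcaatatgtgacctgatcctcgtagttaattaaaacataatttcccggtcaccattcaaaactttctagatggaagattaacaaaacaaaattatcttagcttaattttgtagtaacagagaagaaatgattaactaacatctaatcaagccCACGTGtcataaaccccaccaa
IAA29: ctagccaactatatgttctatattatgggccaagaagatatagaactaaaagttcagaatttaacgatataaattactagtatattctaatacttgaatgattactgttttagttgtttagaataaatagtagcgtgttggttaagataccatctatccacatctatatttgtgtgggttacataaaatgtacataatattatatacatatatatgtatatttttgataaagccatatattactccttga

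IAA19 held 3 copies of TGTCTC and 1 CACGTG, which lay 70 bases before the start. IAA7 held 1 CACGTG at 22 bases before the start, and IAA29, the gene that rose most, held neither motif in its window. Over windows of 250 bases before to 50 bases after the start, TGTCTC was found in 12 of 29 Aux/IAA genes (41.4%), in 1 of 15 ARF genes (6.67%) and in 14.2% of 27443 protein-coding genes. The Aux/IAA carriers include every Aux/IAA gene called lower in uba2c (IAA28, IAA31 and IAA34). Of those called higher, IAA8, IAA19, IAA30 and IAA32 carry it and the rest, with IAA2, IAA7 and IAA29 among them, do not. The other carriers are IAA1, IAA5, IAA6, IAA15 and IAA20. CACGTG was found in 5 of 29 Aux/IAA genes (17.2%: IAA7, IAA14, IAA19, IAA20 and IAA30), in 0 of 15 ARF genes and in 7.68% of all. A match is a run of letters and not a bound site.

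Among the ARF genes, 5 carry a stretch that pairs with one of 2 microRNAs, which is shown because the ARF genes that fell were mostly of this kind. The mature miR160a and miR167a (RefSeq, TAIR10.1) are given with the seed, bases 2 to 8, in capitals.
miR160a-5p: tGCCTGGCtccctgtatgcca
miR167a-5p: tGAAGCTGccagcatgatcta

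The matching stretches, all within coding sequence, are given 5′ to 3′ with the bases outside Watson-Crick pairing in capitals. The first 3 belong to miR160a and the last 2 to miR167a.
ARF10 site, chr2:12115741-12115761, plus strand: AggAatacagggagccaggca
ARF16 site, chr4:14704141-14704161, minus strand: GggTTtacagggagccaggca
ARF17 site, chr1:29274189-29274209, plus strand: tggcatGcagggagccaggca
ARF6 site, chr1:10686478-10686498, minus strand: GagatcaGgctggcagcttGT
ARF8 site, chr5:14633841-14633861, plus strand: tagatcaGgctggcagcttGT

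The libraries held 19720586 to 19847651 reads assigned to genes. Values are the deposited reads adjusted for library size, which left the library totals slightly unequal. Fold changes are differences of log2(value + 0.5), uba2c minus wild type, which understates the change of genes with few reads. Passing means a limma adjusted p under 0.05 over the 22439 genes tested. With 2 libraries against 2, a lack of overlap between genotypes says little by itself, and its share over all genes was not counted. The smallest two-sided exact permutation p for such groups is 0.333. The libraries of IAA14, IAA20, IAA27, ARF1, ARF3 and ARF7, which did not pass, did not overlap either. The UBA2C transcript was at 799 and 771 in wild type and at 209 and 234 in the libraries labelled uba2c (log2 fold change −1.83). UBA2C overlaps AT3G15020 on its own strand. Of 8 reference genes 4 rose and 0 fell, with a median log2 fold change of 0.13. Green-tissue markers were abundant in every library, with 2 of 6 higher and 4 lower in uba2c. Root markers were present in every library, with 10 of 15 lower and 2 higher in uba2c. Their log2 fold changes ran from −1.93 to 1.48. Summed over all 15, root markers were not lower, at 37209 and 38156 in wild type and at 38915 and 38459 in uba2c. Without PYK10, which outweighs the other 14, the sums were 4481 and 5000 in wild type and 2905 and 3056 in uba2c. Of 6 genes of the shoot meristem and flower 2 had enough reads to be tested. STM, a meristem gene, was at 6.77 and 7.76 in wild type and at 36.4 and 51.1 in uba2c (log2 fold change 2.49, limma adjusted p = 0.000584), and AP3, a floral organ gene, fell from 17.4 and 21.3 to 1.92 and 1.96 (−3.02, limma adjusted p = 0.00109). The part of these markers in the members' changes was not tested. In whole seedlings, fewer cells of a type and less RNA per cell cannot be told apart.

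More Aux/IAA genes were higher than lower in uba2c, while ARF genes moved in both directions. Of the 43 members tested, 23 passed, against 34.8% of all genes, and 15 of these were higher and 8 lower in uba2c. Among all genes 17.4% were higher and 17.4% were lower. In the Aux/IAA family 12 of 28 tested genes were higher and 3 were lower, with a median log2 fold change of 0.14. In the ARF family 3 of 15 were higher and 5 were lower, with a median of −0.049. The median over all genes was −0.0043. A change of at least 0.5 on the log2 scale in either direction was passed by 9 Aux/IAA genes and 1 ARF gene, against 14.5% of all genes. The median size of the change, whatever its sign, was 0.23 for Aux/IAA genes, 0.22 for ARF genes and 0.23 for all genes, and whether the families differ was not tested. The direction of small changes depends on the scaling. With each library centred on the mean log2 value of the 8 reference genes, an alternative added after seeing the data, the median of all genes moved to −0.13 and the share of higher genes among all calls from 50.0% to 25.1%. Then 2255 of all 22439 genes tested were higher and 6719 were lower. Of the 28 Aux/IAA genes 8 were higher and 5 lower (median 0.020). Of the 15 ARF genes 2 were higher and 8 lower (median −0.17). Many members are abundant genes, and among genes with a mean value of at least 100, where 41.9% of all genes passed, 19 of 34 members did. Without the first or the second wild type library limma called 3 and 1 ARF genes lower. Without the first or the second uba2c library it called 0 of all genes tested (7513 and 7412 at an unadjusted p under 0.05), while edgeR on the recovered reads, which with all libraries called 45.5% of genes and every one of the 23 members, called 5828 and 6492 genes and 15 and 20 of the 23 members.

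**Figure D1:**
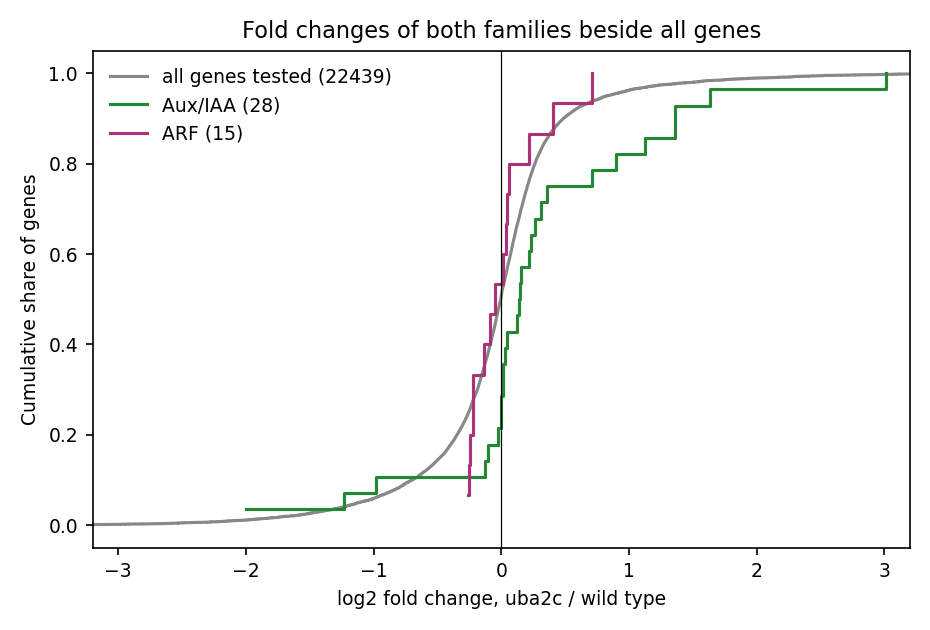
Cumulative share of genes (vertical axis) at or below each log2 fold change, uba2c over wild type (horizontal axis), for all 22439 genes tested, 28 Aux/IAA genes and 15 ARF genes. The Aux/IAA line runs to the right of all genes over most of its length and reaches 3.01, while the ARF line stays between −0.26 and 0.71.

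IAA29, known as a target of PIF factors in shaded seedlings, changed most of all members. It stood at 159 and 167 in the wild type libraries and at 1401 and 1239 in the uba2c libraries. Both mutant libraries were far above both wild type ones. The mean went from 163 ± 5.57 to 1320.2 ± 114 (SD, n = 2 each), 8.11-fold higher (log2 fold change 3.01, SE 0.08, limma adjusted p = 3.98e-07). The gene (AT4G32280, plus strand) spans bases 15583332 to 15584903 of chromosome 4, and IAA15, which also carries the degron core, had 0 reads in all 4 libraries, where a count of 0 allows up to 3 reads per library.

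IAA19, a repressor known for its part in hypocotyl growth and tropisms, rose in both mutant libraries. Its values were 207 and 215 in wild type and 429.7 and 494 in uba2c. The groups did not overlap, and the mean was 2.19-fold higher (log2 fold change 1.12, SE 0.09, limma adjusted p = 5.75e-05). Its close relatives IAA5 and IAA6, both auxin-induced, were at low read numbers (29 to 65 per library) and did not pass (log2 fold changes 0.15 and 0.23). IAA19 (AT3G15540, plus strand) spans bases 5264001 to 5265695 of chromosome 3.

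IAA2 and IAA7 rose together and are close neighbours on chromosome 3. IAA2 was at 1544 and 1497 in wild type and at 2825 and 2847 in uba2c. IAA7, the gene of the dominant axr2 mutants, was at 4144 and 4096 in wild type and at 6659 and 6836 in uba2c. For neither gene did the libraries of the genotypes overlap, and the replicates lay close together. The log2 fold changes were 0.90 (SE 0.04, limma adjusted p = 3.11e-06) for IAA2 and 0.71 (SE 0.03, limma adjusted p = 4.41e-06) for IAA7. IAA2 (8180646 to 8182095, minus strand) and IAA7 (8194606 to 8197161, plus strand) point away from each other with 12510 bases and 1 annotated gene between them.

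The other close Aux/IAA neighbours have the same layout. IAA14, which acts in lateral root formation, and IAA1 are separated by 10732 bases on chromosome 4, and IAA3, which acts in root meristem size, and IAA17, the gene of the axr3 mutants, by 6388 bases on chromosome 1. None of these 4 genes passed in limma. Their log2 fold changes were −0.10 for IAA14, −0.0055 for IAA1, 0.22 for IAA3 and 0.015 for IAA17. IAA3 did pass with edgeR on the recovered reads (adjusted p = 0.0259, against 0.165 in limma, and 0.00906 to 0.743 over all alternatives), its uba2c libraries differing at 574 and 443 reads. The sign for IAA1 turns with TMM scaling (0.00074) and with centring on the median level of the reference genes (0.012), and that for IAA17 with centring on their mean log2 value (−0.11).

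IAA28, a repressor known from lateral root initiation, was the one abundant Aux/IAA gene that fell. It stood at 493 and 492 in wild type and at 263 and 237 in uba2c. Both mutant libraries were below both wild type ones, and the wild type mean was 1.97-fold that of uba2c (log2 fold change −0.98, SE 0.08, limma adjusted p = 5.74e-05). Of the root markers, 10 of 15 were lower in the same libraries, and their part in the fall of IAA28 was not tested. Of its relatives, IAA18 rose (0.31) and IAA26 did not pass (−0.12). With centring on the reference genes' mean log2 value IAA14 (−0.22) and IAA26 (−0.25) also passed as lower.

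**Figure D2:**
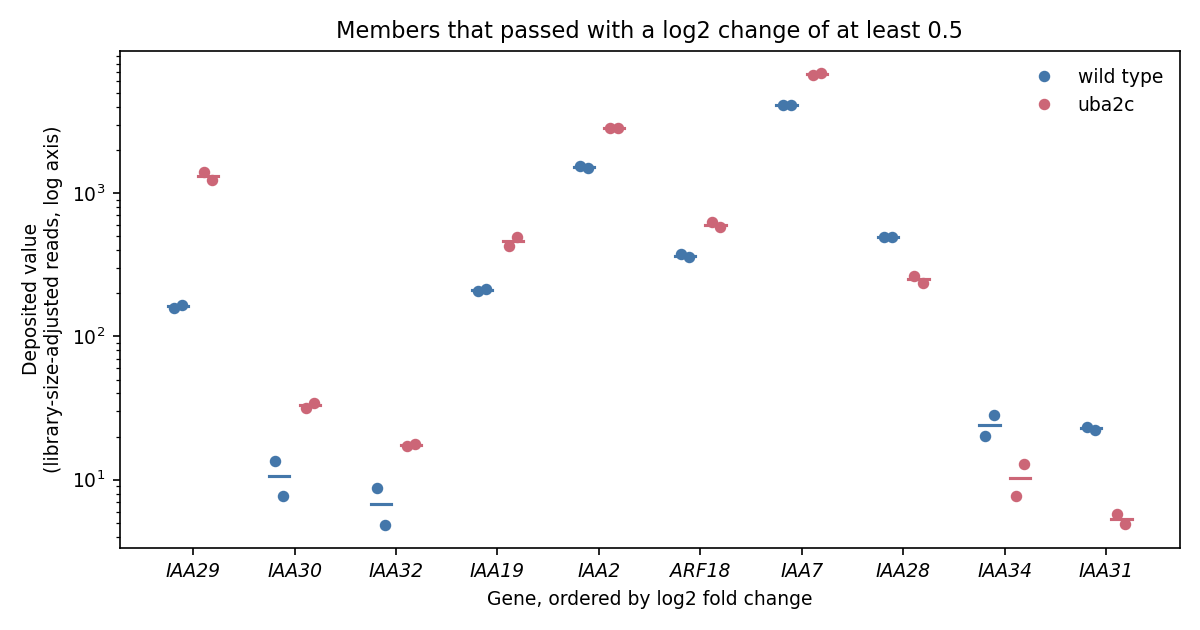
Deposited value per library (points, log axis) and mean (line) for the 10 members that passed with a log2 change of at least 0.5, in wild type and uba2c (n = 2 each). The genes were picked for passing, so the gap between their genotypes is no further result. IAA29 shows the widest gap, from 159 and 167 to 1401 and 1239.

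The 6 genes without the degron core, which miss the usual handle for auxin-driven destruction, were the 6 lowest of the detected Aux/IAA genes per kb of exon in both genotypes, and they moved in both directions. IAA30 was at 13.6 and 7.71 in wild type and at 31.7 and 34.3 in uba2c, higher by 1.64 on the log2 scale (SE 0.34, limma adjusted p = 0.00715), with 22 reads against 68. IAA31 was at 23.3 and 22.3 in wild type and at 5.78 and 4.90 in uba2c, with 47 reads against 11 (log2 fold change −1.999, SE 0.34, limma adjusted p = 0.00288). IAA30 thus rose and IAA31 fell, with no overlap between genotypes in either gene. Limma without its mean-variance trend did not keep the IAA30 call (adjusted p = 0.0584). Reads in uba2c divided by those in wild type gave 3.07 for IAA30 (95% exact interval 1.88 to 5.22) and 0.233 for IAA31 (0.109 to 0.455), intervals that cover counting error only.

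IAA32 and IAA34 passed in limma on few reads, and neither call held with DESeq2 or without the second wild type library. IAA32 was at 8.75 and 4.81 in wild type and at 17.3 and 17.7 in uba2c (log2 fold change 1.36, limma adjusted p = 0.0302). IAA34 was at 20.3 and 28.2 in wild type and at 7.65 and 12.8 in uba2c (log2 fold change −1.23, limma adjusted p = 0.0317). Without the second wild type library limma gave adjusted p = 0.121 for IAA32 and 0.136 for IAA34, and DESeq2 gave 0.187 and 0.148. IAA32 overlaps AT2G01210 on the opposite strand, at 59.1 in wild type and 60.8 in uba2c, and IAA34 overlaps AT1G15060 on its own strand, at 618 and 588. Whether the counting used strand is not given. IAA20 did not pass (2 and 3 reads in wild type, 10 and 5 in uba2c, limma adjusted p = 0.0906), and IAA33 had at most 2 reads in any library.

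The remaining Aux/IAA genes held steadier. The 6 that passed with a smaller change were all higher in uba2c. They were IAA13 (0.36), a relative of the embryonic-root repressor IAA12, IAA18 (0.31), IAA16 (0.26), IAA4 (0.15), IAA9 (0.14) and IAA8 (0.12), all as log2 fold changes. The last 3 rises are about the size of the reference genes' median, and centring on those genes' mean log2 value left IAA4 at 0.027, IAA9 at 0.013 and IAA8 at −0.0010, and IAA18 at 0.19 (adjusted p = 0.0514). Leaving out 1 wild type library ended the limma calls of IAA4 (adjusted p = 0.0744 and 0.0834 without the first and the second), of IAA8 (0.0635 and 0.157) and of IAA9 (0.0959 without the first). The 9 genes with a wild type mean of at least 50 that did not pass lay between −0.12 and 0.22. They include IAA12 (−0.027), IAA10 (0.032), IAA11 (0.013) and IAA27 (0.042), the last 3 being below 0 with that centring. Of the genes with the degron core, 10 were higher and 1 was lower of 22 tested (6 and 3 with that centring), and of the 6 without it 2 were higher and 2 were lower. Among all genes 17.4% were called in each direction, and with that centring 2255 of 22439 were higher and 6719 lower. The difference between the genes with and without the core was not tested.

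**Figure D3:**
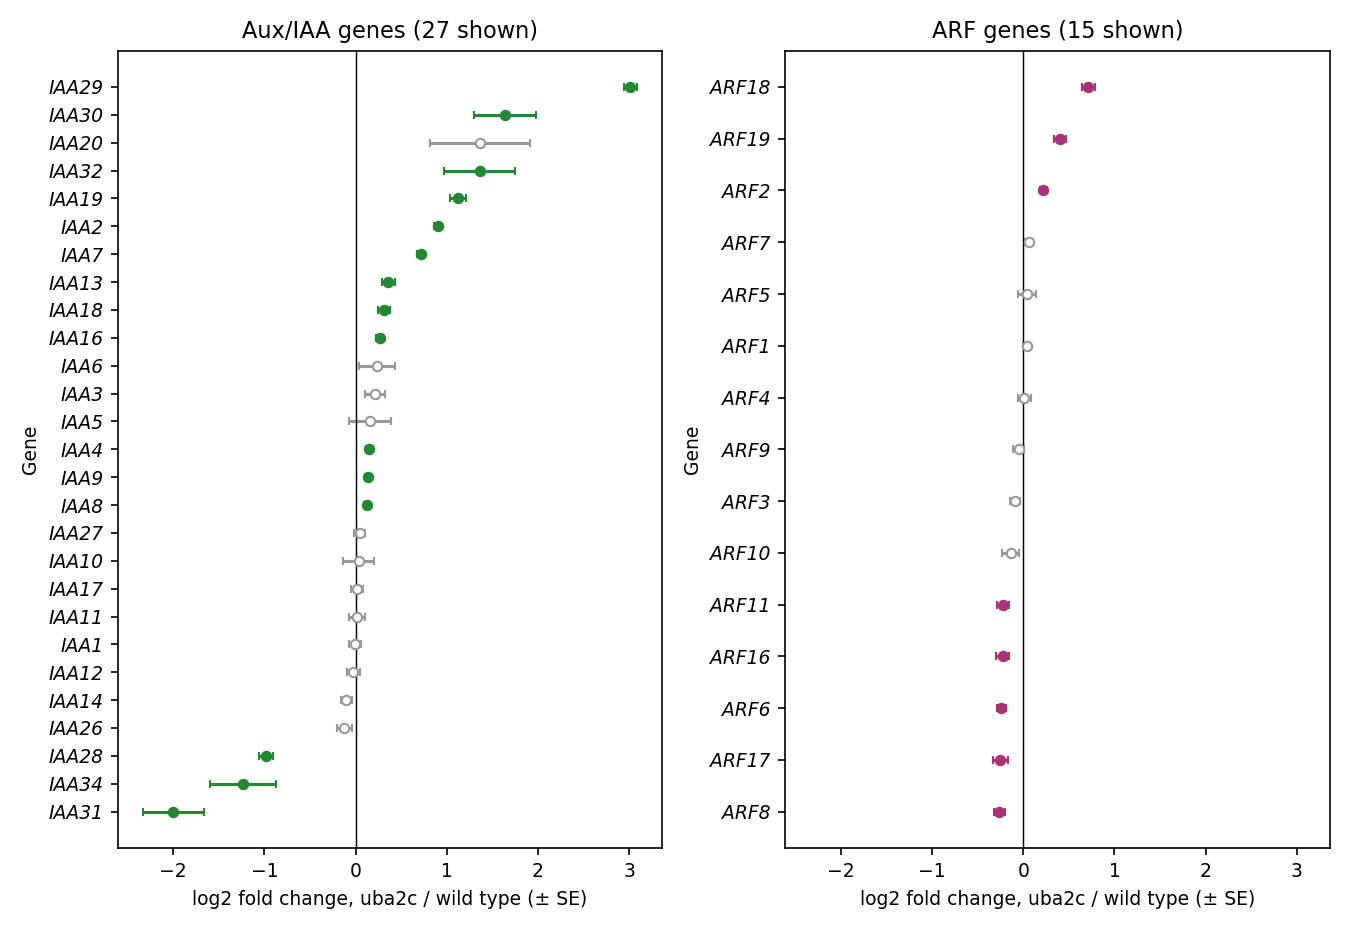
Log2 fold change, uba2c over wild type, with its SE for each member with enough reads for a fold, Aux/IAA genes at left and ARF genes at right. Filled points passed at a limma adjusted p under 0.05. Aux/IAA genes spread from −1.999 (IAA31) to 3.01 (IAA29), and ARF genes from −0.26 (ARF8) to 0.71 (ARF18).

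ARF18, a repressor-type ARF, was the ARF gene that changed most. It stood at 375 and 357 in wild type and at 626 and 576 in uba2c. The groups did not overlap, and the mean was 1.64-fold higher (log2 fold change 0.71, SE 0.07, limma adjusted p = 0.000172). ARF18 (AT3G61830, plus strand) spans bases 22887889 to 22891455 of chromosome 3. Of the other repressor-type genes, ARF2, known for limiting seed and organ size, rose by 0.22 from 6251 and 6439 to 7212 and 7565 (limma adjusted p = 0.00291), and by 0.097 with centring on the reference genes' mean log2 value (adjusted p = 0.0760). ARF11 fell (−0.22, limma adjusted p = 0.0271), a call that ended without the second wild type library (adjusted p = 0.129). ARF1, ARF3, ARF4 and ARF9 did not pass, with log2 fold changes between −0.086 (ARF3) and 0.037 (ARF1), and with that centring all 4 were below 0 and ARF3 (−0.21) and ARF9 (−0.17) passed.

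The activator ARFs moved in both directions. ARF19, which acts with ARF7 in lateral root formation, was at 381 and 413 in wild type and at 522 and 526 in uba2c, with no overlap (log2 fold change 0.40, SE 0.07, limma adjusted p = 0.00263). ARF19 overlaps AT1G19210 on its own strand, a gene at a mean of 4.84 in wild type. ARF7 itself did not pass (0.063), nor did ARF5, also called MONOPTEROS (0.042), and both were below 0 with that centring. ARF6, which with ARF8 promotes flower maturation, was at 1307 and 1310.3 in wild type and at 1073 and 1142 in uba2c (−0.24, limma adjusted p = 0.00616). ARF8 was at 677 and 728 in wild type and at 582 and 588 in uba2c (−0.26, limma adjusted p = 0.0101). Both genes with a miR167a site thus fell slightly, and the ARF8 call ended without the second wild type library (adjusted p = 0.0563) and with DESeq2 (0.0531).

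Of the 3 genes with a miR160a site 2 fell slightly. ARF17 was at 259.7 and 264 in wild type and at 218 and 222 in uba2c (−0.25, limma adjusted p = 0.0453). ARF16 was at 472 and 493 in wild type and at 395 and 432 in uba2c (−0.22, limma adjusted p = 0.0401). ARF10 did not pass (−0.14, limma adjusted p = 0.305), except with centring on the reference genes' mean log2 value (−0.26, adjusted p = 0.0473). Of the 5 genes with a microRNA site 4 passed as lower, against 17.4% of all genes. The group is shown because its members were lower, so this count is no test of it. DESeq2 kept 1 of these 4 calls, ARF6, and limma without its mean-variance trend did not keep any. Among known targets of other small RNAs, none passed as lower, and this difference was not tested. Of the TAS3 small RNA targets ARF2 rose (0.22), and ARF3 (−0.086) and ARF4 (0.013) did not pass. Of the miR393 targets TIR1 rose (0.41), and AFB2 (−0.044) and AFB3 (−0.18) did not pass. With centring on the reference genes' mean log2 value ARF3, AFB2 and AFB3 passed as lower. Without the first or the second wild type library neither ARF17 (adjusted p = 0.126 and 0.161) nor ARF16 (0.0504 and 0.146) passed, and mature microRNAs were not measured.

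Per kb of exon, the Aux/IAA sum was higher in uba2c, and the direction for the ARF sum depended on the scaling. The Aux/IAA sum was 15852 and 15591 in wild type and 20308 and 20195 in uba2c, 1.29-fold higher as a mean. The ARF sum was 4407 and 4509.7 in wild type and 4651 and 4747 in uba2c, 1.05-fold higher. Within each family the libraries of the genotypes did not overlap. With centring on the reference genes' mean log2 value the ratio of sums, uba2c over wild type, was 1.18 for Aux/IAA genes and 0.968 for ARF genes. IAA7 made up 30.4% of the difference between the Aux/IAA sums, IAA2 21.4% and IAA29 19.9%. In the ARF family, ARF2 alone rose by more than the whole sum (112% of it).

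In wild type the top Aux/IAA levels per kb were close together. IAA9 (2369.6 ± 29.1) and IAA8 (2356 ± 37.7) differed by less than their SD, followed by IAA16 (2251 ± 56.6) and IAA7 (2159 ± 17.9, n = 2 each). In uba2c IAA7 led (3537 ± 65.5), ahead of IAA16 (2699 ± 26.9), IAA9 (2604 ± 18.9) and IAA8 (2563 ± 25.0). IAA7 took 13.7% of the Aux/IAA sum in wild type and 17.5% in uba2c. IAA29 moved from rank 19 (127 per kb) to rank 7 (1029 per kb) and from 0.807% to 5.08% of the sum. ARF2 led the ARF family in every library with 36.7% and 36.9% of the sum in wild type and 40.1% and 41.2% in uba2c, followed by ARF1 (549 per kb in wild type, 563 in uba2c).

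**Figure D4:**
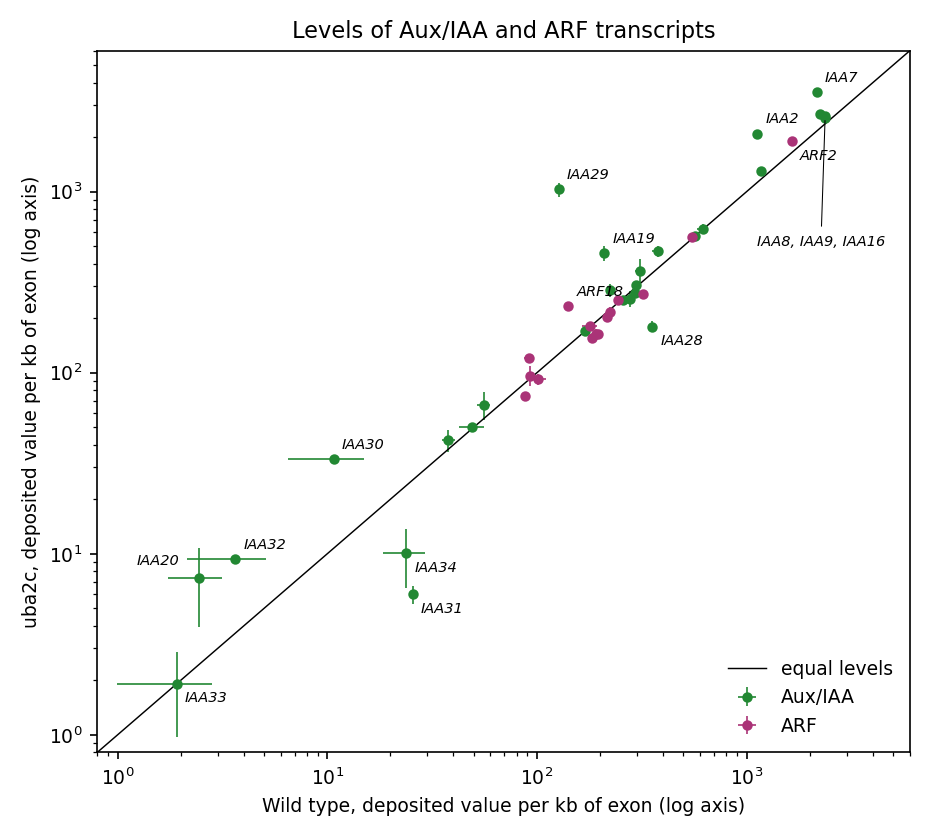
Deposited value per kb of exon in uba2c (vertical, log axis) against wild type (horizontal, log axis) for the members with reads, mean ± SD of 2 libraries, with a line of equal levels. Many genes lie near the line, IAA29 lies farthest above it (127 to 1029), and IAA31 lies farthest below (25.5 to 5.99).

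The other genes of the pathway were read on lists written with earlier results of these data known, and 27 of 62 tested were higher in uba2c and 6 were lower, against 17.4% of all genes in each direction. With centring on the reference genes' mean log2 value 22 were higher and 12 were lower, against 2255 and 6719 of all 22439 genes. Genes of signalling proper moved by small amounts, and the receptors and ligase genes passed about as often as all genes (34.8%). Of the 6 receptors 2 rose, TIR1 (log2 fold change 0.41) and AFB5 (0.30), and 0 fell. Of 9 genes of the ubiquitin ligase and its regulators, ECR1 (0.29) and CUL1 (0.19) rose and ASK2 fell (−0.13). Of 5 corepressors TPL (0.38) and TPR2 (0.26) rose. With that centring TIR1, AFB5 and TPL were still higher, while ECR1 (adjusted p = 0.0615), CUL1 (0.267) and TPR2 (0.0564) did not pass. Then 2 receptors, AFB2 (−0.17) and AFB3 (−0.31), passed as lower. So did 4 ligase genes, ASK1 (−0.13), ASK2 (−0.25), RCE1 (−0.20) and SGT1B (−0.13), and 1 corepressor, TPR4 (−0.15). Of the 8 ARF12-clade genes 1 had enough reads to be tested, ARF20, which did not pass.

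Of the auxin synthesis genes of the YUCCA family that were listed, YUC8 and YUC9 rose, while YUC1, YUC2, YUC4 and YUC6 did not pass. YUC9 was at 40.5 and 63.2 in wild type and at 311 and 303 in uba2c (log2 fold change 2.59), and YUC8 was at 40.7 and 41.7 in wild type and at 145 and 112 in uba2c (1.61). Both encode flavin monooxygenases of the last step to auxin, and their libraries did not overlap between genotypes. TAA1, the aminotransferase of the step before, fell (−0.41), so that 2 of 8 synthesis genes rose and 1 fell. The share of synthesis genes that passed, 37.5%, was near that of all genes (34.8%). Of 12 transport genes 6 rose and 2 fell, against 17.4% of all genes in each direction. The efflux carriers PIN3 (1.04) and ABCB19 (0.82) and the influx carrier AUX1 (0.64) rose. The root carrier PIN2 fell (−0.94), in libraries where 10 of 15 root markers were lower and 2 higher.

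Of 15 response genes 9 rose and 1 fell, against 17.4% of all genes in each direction. GH3.5, GH3.3 and GH3.6, enzymes that conjugate auxin to amino acids, rose by 2.41, 1.43 and 1.27 on the log2 scale, GH3.5 going from 466 and 482 to 2514 and 2532. ATHB-2, a homeodomain factor induced by shade, went from 340.5 and 293 to 1333 and 1406 (2.11). The gene that fell was TMO7 (−1.12). Among 6 PIF factors and inhibitors 4 rose and 1 fell, beside the same 17.4% of all genes. PIL1 and HFR1, basic helix-loop-helix proteins related to the PIFs, rose by 3.45 and 3.32, PIF3 rose by 0.47 and PIF7 fell (−0.92).

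**Figure D5:**
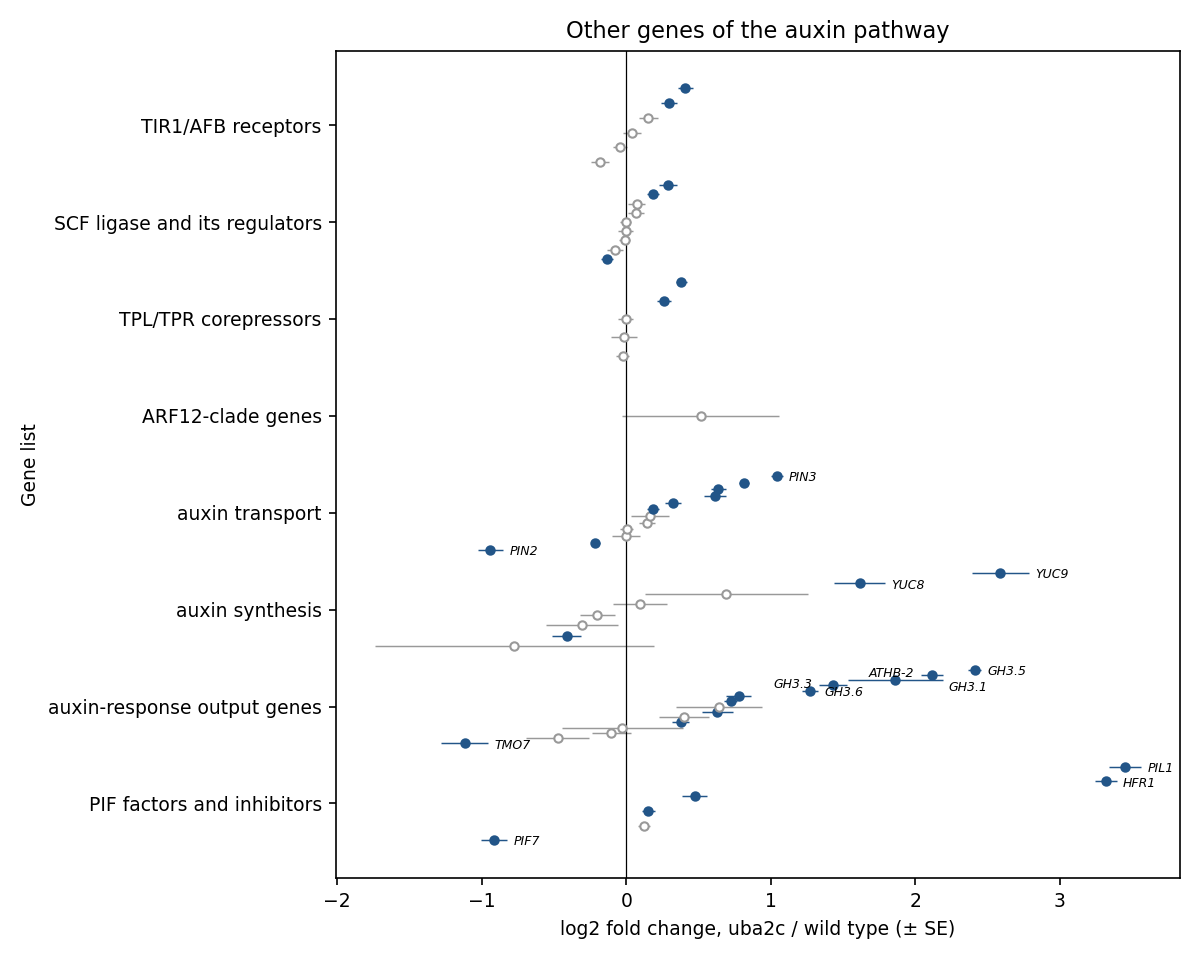
Log2 fold change, uba2c over wild type, with its SE for the other genes of the auxin pathway by list. Filled points passed at a limma adjusted p under 0.05. Receptor, ligase and corepressor genes stay between −0.18 and 0.41, and PIL1 (3.45) and HFR1 (3.32) reach the highest values.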

How the data were processed

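RNA from seedlings of 2 genotypes (2 libraries each) was sequenced as single-end reads of 50 bp. The submitters' processing notes name the TAIR10 build and FastQC, HISAT2, SAMtools 1.9, featureCounts and edgeR; how counting was set and whether it used strand are not stated there. Each deposited value is a signal, reads per gene adjusted by the authors for library size by a step that is not stated. The values have the form of edgeR's quantile-adjusted pseudo-counts, and 100% of them came back to whole reads within 0.001. They sum to 19111252 and 19115648 in wild type and to 19098122 and 19438684 in uba2c, so the totals were not made equal. Recovered totals were 19720586, 19723551 (wild type 1 and 2), 19847651 and 19816174 (uba2c 1 and 2). The table holds 0 columns of other samples.

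The design allowed for counts or normalised values. As the values are normalised, limma 3.58.1 (R 4.3.3) with a mean-variance trend was run on log2(value + 0.5) for genes reaching a value of 1 in 2 or more libraries, with group as the single term, two-sided, and Benjamini-Hochberg adjustment over all genes tested at 0.05. Of 32548 genes, 7678 had no read in any library. edgeR 4.0.16 (quasi-likelihood test) and DESeq2 1.42.0 on the recovered reads were among 20 alternatives, of which 1 (centring on the mean log2 value of the reference genes) was added after seeing the data. On reads, edgeR called 9138 of 20091 genes (45.5%). The limma and edgeR fits, but not DESeq2 or the recovery of reads, were also run on simulated counts with a single common dispersion. The outcome is not given here.

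Replicate libraries differed by more than sampling noise (chi-square over degrees of freedom 1.49 in wild type and 1.97 in uba2c) and were kept apart. Levels between genes are values per kb of exon of the TAIR10.1 annotation, which also gave symbols, coordinates and sequences. Of the members, 11 overlap an annotated gene on the opposite strand and 2 one on their own strand. Opposite-strand partners passed for IAA5 (0.41), IAA11 (−0.82), IAA27 (−0.36), ARF1 (0.26), ARF5 (0.39) and ARF7 (0.36), members that did not pass. The partner of ARF7 was at 5600 in wild type and 7176 in uba2c. Those of IAA3 and IAA32 did not pass, and those of IAA9, IAA10 and IAA13 were not tested. Whether partner reads entered the members' values was not tested. For IAA13, 0.405% of 50-base stretches of its exons occur elsewhere in the genome, and for all other members 0%. The members, lists and tests were chosen with earlier results of these data known. The rule for named genes gives values per library for members past the threshold with a log2 change of at least 0.5 and fold changes for the rest; those of ARF2, ARF6, ARF8, ARF16, ARF17 and ARF19 were added after their values were seen.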

Additional observations from a re-analysis of the deposited data

How the results depend on the processing

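Of the members that passed, IAA8 alone changed sign under any of the 20 alternatives, and every count of calls and median kept within 1.5 times or 1 SD of its value except as follows. With each library centred on the mean log2 value of the reference genes, whose mean was 0.12 higher in uba2c, 6719 of 22439 genes were lower. Among them were 5 Aux/IAA and 8 ARF genes, and the family medians were 0.020 and −0.17. Limma without the mean-variance trend called 4 Aux/IAA genes higher and 0 ARF genes lower, and DESeq2 called 1 ARF gene lower. With 1 library left out, limma called 0 to 9 Aux/IAA genes higher, 0 to 3 lower, 0 to 3 ARF genes higher and 0 to 3 lower; edgeR called 8 to 12, 2 to 3, 3 and 2 to 4. In these fits the lone library is assumed to vary like the pair. The Aux/IAA median ranged from 0.098 to 0.17 over them.

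The same centring turned IAA8 (−0.0010), IAA10 (−0.091), IAA11 (−0.11), IAA17 (−0.11), IAA27 (−0.080), IAA33 (−0.12), ARF1 (−0.086), ARF4 (−0.11), ARF5 (−0.081) and ARF7 (−0.060). IAA1 was at 0.00074 with TMM factors and at 0.012 when centred on the median level of the reference genes. With 1 library left out, log2 fold changes ranged from −0.062 to 0.051 for IAA1, −0.11 to 0.18 for IAA10, −0.011 to 0.038 for IAA11, −0.083 to 0.032 for IAA12, −0.050 to 0.080 for IAA17, −0.37 to 0.38 for IAA33, −0.072 to 0.097 for ARF4, −0.089 to 0.17 for ARF5 and −0.12 to 0.019 for ARF9.

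The replicate numbers are shared between genotypes but nothing in the labels says that they pair, and deviations of same-numbered libraries had a correlation of 0.00806 over 19816 genes. With the number as a replicate block limma called 8025 genes in place of 7809, and the members' calls stayed as they were except ARF17 (−0.25, adjusted p = 0.0558); with edgeR the block gave 13 Aux/IAA genes higher, 3 lower, 3 ARF genes higher and 5 lower. The 23 member calls all held with edgeR, which added IAA3, while DESeq2 kept 15 and limma without the trend 8; the cause was not tested. Depth limits IAA15, IAA20 and IAA33, and the calls of IAA32 and IAA34.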
